A study of Mus musculus with 4 samples.

Results

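The Krüppel-like factors (KLF) described here are 10 genes, Klf2, Klf3, Klf4, Klf6, Klf7, Klf9, Klf10, Klf11, Klf12 and Klf13, out of 24087 genes listed for splenic regulatory T (Treg) cells. They were chosen by gene name from a family that was put forward with their FPKM values in both genotypes known. Their differences between genotypes, and any p-values or calls given for them, are therefore a description and not independent evidence. All mice were C57BL/6 and carried Cre-YFP at Foxp3, the gene that defines Treg cells, so that floxed Setd2 was cut in Foxp3-expressing cells. The KO group was Foxp3Cre-YFPSetd2f/f and the CTRL group was its Foxp3Cre-YFPSetd2f/+ littermates, which themselves carry 1 floxed Setd2 allele. Each group had 2 libraries (CTRL 1, CTRL 2, KO 1 and KO 2) of CD3+CD4+YFP+ cells from untreated mice, each from a pool of 2 or 3 mice. The methods give an age of 6 to 12 weeks and both sexes for the study's mice in general, and not for each library. Values are FPKM, the number of fragments corrected for gene length and for the depth of the library.

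KLF proteins bind GC-rich DNA and CACCC boxes through C2H2 zinc fingers at their carboxyl end, and they share this fold with the SP factors. Their amino-terminal parts differ, and some members recruit acetyltransferases while others recruit the corepressors CtBP or Sin3a. In T cells, KLF2 is best known for holding cells in quiescence and for driving genes of lymph node entry and tissue egress, and its transcript falls when the T cell receptor is engaged. Setd2 places trimethylation on lysine 36 of histone H3 over transcribed gene bodies.

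The libraries held at least 29984837 to 32683452 reads, and their relative depths lay between 1 and 1.081. Setd2 itself, the targeted gene, was 23.4 and 25.3 FPKM in CTRL and 21.3 and 19.5 in KO. Its difference of -0.24 (SE 0.076) on the log2(FPKM + 1) scale did not pass limma's threshold (adjusted p = 0.0970, Benjamini-Hochberg). Both KO libraries were nevertheless below both CTRL libraries. A value for the whole gene does not show whether the floxed part was cut, and CTRL cells carry a floxed allele too. So these values do not measure the deletion. By flow cytometry, the paper reports that Setd2 was lost from splenic Treg cells of KO mice. It also reports a strong drop in the histone mark that Setd2 places. All 7 Treg and T cell markers, Foxp3 and Il2ra among them, were present, with sums of 1584 to 1668 FPKM. Foxp3 (-0.17, SE 0.088), Il2ra (-0.35, SE 0.13), Cd4 and Cd3d were lower in each KO library than in either CTRL library. Ikzf2 was higher in each, and Ctla4 and Cd3e overlapped. Over all genes tested, 35.5% had both KO libraries below both CTRL libraries and 29.0% both above. No marker among the 7 passed limma's threshold. Summed myeloid markers were 172.6 and 102.8 FPKM in CTRL and 238.6 and 84.4 in KO, so CTRL 1 and KO 1 held more of them than CTRL 2 and KO 2.

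The members differed widely in gene structure (GENCODE vM21, GRCm38). Klf2 (chromosome 8, 72319033 to 72321656, plus strand) spans 2.6 kb and Klf6 (chromosome 13, 5861482 to 5870394, plus strand) spans 8.9 kb. Klf12 (chromosome 14, 99870632 to 100284679, minus strand) spans 414.0 kb. The median body of the genes tested was 21.2 kb, and 5 of the 10 members were shorter. Only 8.11% of genes tested were as short as Klf2, and 0.53% were as long as Klf12. Klf2, Klf4, Klf6, Klf10 and Klf11 overlapped no other annotated gene, while the other members did, mostly noncoding genes on the other strand. Among the overlapping genes, the table listed Mir1192, inside Klf9, at 0, and E030018B13Rik, across from Klf13, at 0.03 to 0.39 FPKM.

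The promoters of the members were read from RefSeq (GRCm38.p6), as the 250 bases before the transcript start, and 9 of the 10 members had an entry. Klf10 had none. The 4 sequences shown belong to members whose KO and CTRL libraries did not overlap in FPKM, with Klf2 and Klf6 lower and Klf9 and Klf13 higher in KO. Klf12, also higher in KO without overlap, had an entry whose sequence is not shown. The 4 sequences are written 5′ to 3′ on the strand of the gene and stop where the first annotated exon begins. Capitals mark the CACCC box (CACCC or GGGTG), the GC box (GGGCGG or CCGCCC), the CCAAT box (CCAAT or ATTGG), the FOXO core (GTAAACA or TGTTTAC) and the MEF2 motif, each searched on both strands.

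Klf2, chr8:72318812-72319032, plus strand: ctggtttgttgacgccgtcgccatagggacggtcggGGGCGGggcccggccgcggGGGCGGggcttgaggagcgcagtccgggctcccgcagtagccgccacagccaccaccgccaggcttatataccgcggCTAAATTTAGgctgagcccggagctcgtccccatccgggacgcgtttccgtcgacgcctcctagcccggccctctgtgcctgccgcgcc

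Klf6, chr13:5861239-5861481, plus strand: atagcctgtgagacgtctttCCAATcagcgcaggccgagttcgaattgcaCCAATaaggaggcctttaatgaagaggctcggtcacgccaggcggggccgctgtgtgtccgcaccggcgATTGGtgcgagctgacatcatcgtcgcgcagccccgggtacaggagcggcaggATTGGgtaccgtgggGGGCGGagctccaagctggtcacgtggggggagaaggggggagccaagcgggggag

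Klf9, chr19:23140976-23141225, plus strand: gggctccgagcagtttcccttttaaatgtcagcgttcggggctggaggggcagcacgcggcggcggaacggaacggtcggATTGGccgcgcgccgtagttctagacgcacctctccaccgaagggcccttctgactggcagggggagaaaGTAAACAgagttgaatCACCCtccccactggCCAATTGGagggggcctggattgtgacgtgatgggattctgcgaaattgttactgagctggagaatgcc

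Klf13, chr7:63938916-63939165, minus strand: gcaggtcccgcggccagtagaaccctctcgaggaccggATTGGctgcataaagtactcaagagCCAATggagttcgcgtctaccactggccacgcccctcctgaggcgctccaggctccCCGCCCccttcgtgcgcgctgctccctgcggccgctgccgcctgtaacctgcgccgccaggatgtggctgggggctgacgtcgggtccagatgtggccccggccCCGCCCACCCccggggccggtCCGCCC

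In these stretches, Klf2 held 2 GC boxes and 1 MEF2 motif and no CCAAT box. MEF2 factors, with the kinase ERK5, are a known route to Klf2 transcription. Klf6 held 4 CCAAT boxes and 1 GC box. Klf9 held 3 CCAAT boxes, of which the last pair overlap, with 1 CACCC box and 1 FOXO core. FOXO1 is another factor known to act on KLF genes in T cells. Klf13 held 3 GC boxes, 2 CCAAT boxes and 1 CACCC box that overlaps a GC box.

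Over the full 250 bases, a GC box was found in 7 of 9 members and in 32.7% of 32851 promoters. A CACCC box, the sequence that KLF proteins themselves bind, was in 6 of 9 members and 52.0% of promoters, and a CCAAT box in 4 of 9 and 33.9%. The FOXO core was found in Klf9 alone (3.17% of promoters) and the MEF2 motif in Klf2 alone (2.92%). CpG dinucleotides numbered 6 to 32 per window, against a median of 6 over all promoters, and 8 of the 9 members were above that median. The exception was Klf12, whose RefSeq start lies far inside the gene annotated by GENCODE. These matches describe letters in a window and not bound sites.

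In CTRL Treg cells the family was carried by a few genes. Klf2 was 353.1 and 386.4 FPKM, a level reached by 1.46% of the genes tested. Klf6, a broadly expressed zinc-finger activator, was 166.7 and 181.4 FPKM, second in the family, a level reached by 2.88% of the genes tested. Klf3, a CtBP-binding repressor, was 81.8 and 95.7 FPKM. Klf13 was 51.7 and 62.0 FPKM, and Klf4 was 24.8 and 28.3 FPKM. These 5 genes did not overlap one another among the CTRL libraries.

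The remaining members were lower. In CTRL, Klf10 was 14.4 and 14.7 FPKM and Klf11 was 11.0 and 12.0 FPKM. Klf7 (5.35 and 6.85 FPKM) and Klf9 (4.93 and 5.48 FPKM) overlapped and so have no order. Klf12 was the lowest, at 1.40 and 1.04 FPKM, from 206 to 419 reads at least over the 4 libraries, whereas the value of Klf2 rested on at least 21009 to 24304. In KO, the ranges of Klf3 and Klf13 overlapped, as did those of Klf9 and Klf7. The level of a gene relative to another depends on the gene length used, which is not given in the sources used here. On a scale set by the median gene, the least reads recovered for Klf3 and Klf7 corresponded to lengths of at least 1.78 and 2.07 kb, well under the 11.24 and 8.13 kb of their annotated exons. A factor shared by all read counts of a gene cannot be seen in such recovered reads. For the other 8 members this length was above the annotated exon length.

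Summed over the 17 KLF genes listed, FPKM was 732.9 and 813.6 in CTRL and 724.6 and 683.6 in KO, and the 10 members made up 96.9% to 97.6% of it. Klf2, Klf6 and Klf3 together took 82.1% and 81.6% of the family in CTRL and 74.9% and 77.6% in KO. Such shares, and the rank of Klf3, depend on the gene length used, which is uncertain for Klf3 as described above. Klf2 alone held 46.7% to 48.2% in the 4 libraries, so its share was nearly the same in both genotypes. The ratio of Klf2 to Klf6, which does not depend on how the libraries were scaled, was 2.12 and 2.13 in CTRL and 2.37 and 2.73 in KO.

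**Figure D1:**
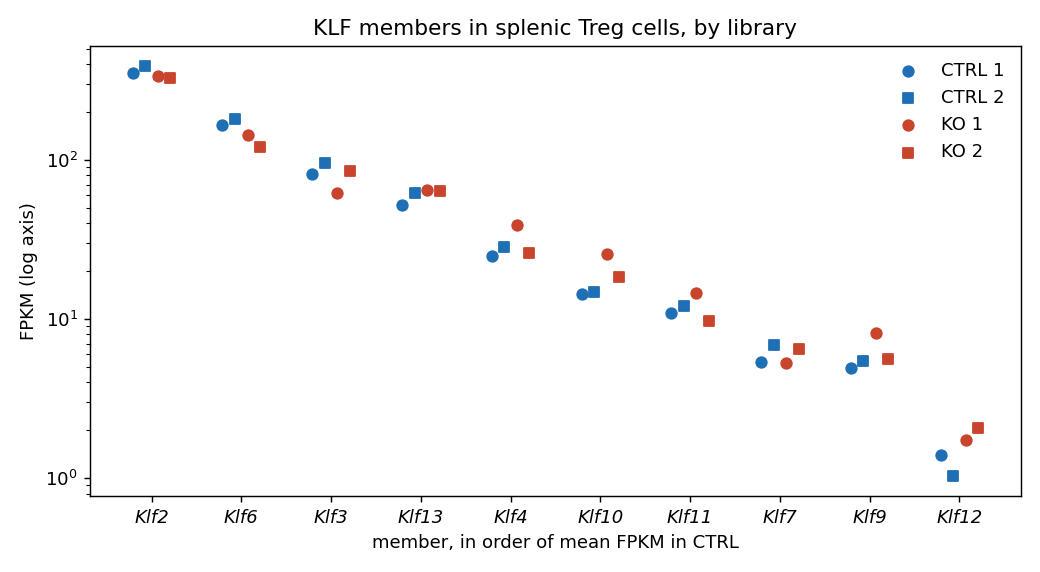
FPKM of the 10 KLF members in each library, on a log axis, with CTRL libraries in blue and KO libraries in red, and members in order of mean FPKM in CTRL. Klf2 stands highest in every library (326.2 to 386.4 FPKM) and Klf12 lowest (1.04 to 2.06 FPKM).

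The question of the comparison was which transcripts differ when Setd2 is deleted in Treg cells. KO libraries lay below both CTRL libraries for 2 members, Klf2 and Klf6, and above both for 4, Klf9, Klf10, Klf12 and Klf13. The other 4 overlapped. Over all 11399 genes tested, 35.5% had both KO libraries below and 29.0% both above, and nothing is read from the members' counts, since they were chosen with this contrast known. By limma at adjusted p under 0.05, 0 of 10 members were called, beside 4.65% of all genes called lower and 5.10% called higher. At an unadjusted p under 0.05 there were 3 members, Klf6 on the lower side and Klf10 and Klf12 on the higher, beside 18.4% of all genes lower and 16.3% higher. Limma-voom on the recovered reads called 1 member, Klf6, on the lower side, beside 8.98% of all genes lower and 7.61% higher. The median difference of the members was 0.11 on the log2(FPKM + 1) scale, and over all genes tested it was -0.022.

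Among the activators, Klf2 was 338.1 and 326.2 FPKM in KO, a difference from CTRL of -0.15 (SE 0.067) on the log2(FPKM + 1) scale. The KO libraries were close together, and the nearest CTRL library was only slightly above them. Klf6 was 142.4 and 119.6 FPKM in KO, a difference of -0.41 (SE 0.10). Its means were 174.1 ± 10.4 FPKM (SD, n = 2) in CTRL and 131.0 ± 16.2 (SD, n = 2) in KO, and both KO libraries lay below CTRL. The gap between its KO libraries was 0.25 on the log2(FPKM + 1) scale, and limma did not call it (adjusted p = 0.0622).

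Klf4, an activator and repressor best known from stem cells and myeloid cells, was 38.9 FPKM in KO 1 and 25.8 in KO 2. KO 1 was above both CTRL libraries and KO 2 lay between them, with a difference of 0.25 (SE 0.20). Klf7 was 5.33 and 6.50 FPKM in KO, and its KO and CTRL libraries interleaved, with a difference of -0.04 (SE 0.15).

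The members that bind CtBP were Klf3 and Klf12. Klf3 was 62.3 FPKM in KO 1, below both CTRL libraries, and 84.9 in KO 2, between them, with a difference of -0.28 (SE 0.16). Klf12 was 1.74 and 2.06 FPKM in KO, above both CTRL libraries, with a difference of 0.39 (SE 0.14). At this low level the pseudocount of 1 pulls the difference towards 0, and limma-voom gave 0.65 (SE 0.19).

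The Sin3a-binding members are Klf9, Klf10, Klf11 and Klf13, of which Klf10 and Klf11 are known as TGF-beta-inducible early genes. Klf10 was 25.7 and 18.3 FPKM in KO, and both libraries were above CTRL (0.55, SE 0.16). Klf9 was 8.23 and 5.63 FPKM in KO, with KO 2 barely above the higher CTRL library (0.34, SE 0.17). Klf11 was 14.5 and 9.79 FPKM in KO, on both sides of CTRL (0.05, SE 0.18). Klf13 was 64.9 and 63.4 FPKM in KO, just above the 62.0 of CTRL 2 (0.18, SE 0.096).

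**Figure D2:**
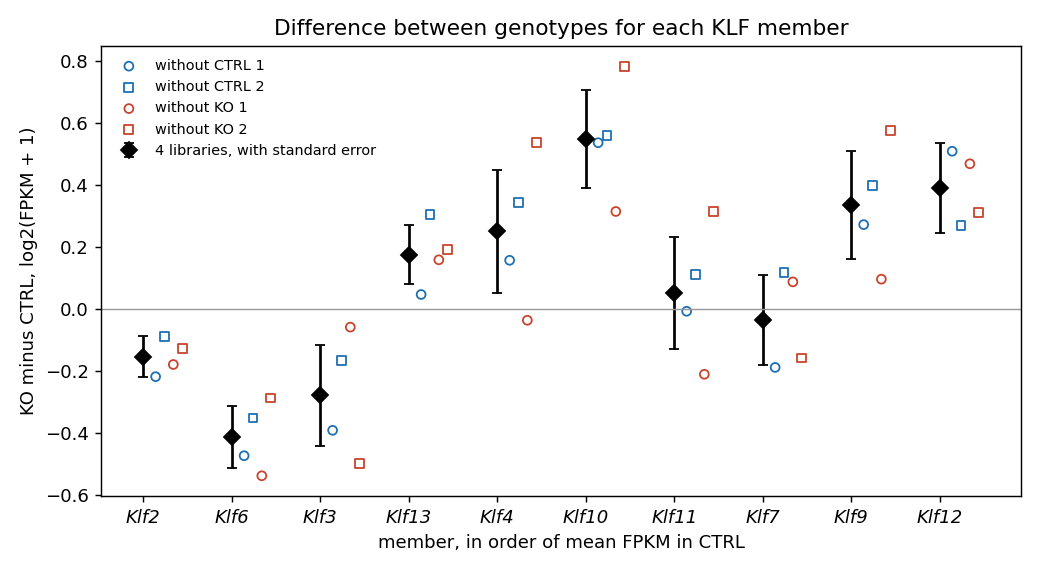
KO minus CTRL difference of each KLF member on the log2(FPKM + 1) scale, with black diamonds for all 4 libraries, bars for the standard error, and open symbols for the value when the library named in the key was left out. Klf6 stays below 0 and Klf10 above 0 whichever library is left out, as they must because their libraries are separate between genotypes. Klf4, Klf7 and Klf11, whose libraries overlap, cross 0.

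Klf4, Klf9, Klf10 and Klf11 were high in KO 1 and not, or less, in KO 2. The gap between KO 1 and KO 2 was 0.57 for Klf4, 0.52 for Klf11, 0.48 for Klf9 and 0.47 for Klf10 on the log2(FPKM + 1) scale. The median size of this gap over all genes tested was 0.091, and 3.74% of genes had a gap as large as that of Klf4. KO 1 was above KO 2 in 7 of 10 members and in 46.4% of all genes tested. Without KO 1 the KO minus CTRL difference was -0.04 for Klf4, -0.21 for Klf11, 0.10 for Klf9 and 0.31 for Klf10. Klf3 went the other way, with KO 1 lower, and was -0.06 without KO 1.

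Markers of other cells were unequal between the same KO libraries. All 7 myeloid markers were listed, and of these S100a8 was listed at 0 in CTRL 2. Lyz2, lysozyme of myeloid cells, was 113.6 and 71.9 FPKM in CTRL and 153.1 and 60.0 in KO. The myeloid markers did not all peak in the same library. Lyz2, Cd14, S100a8 and S100a9 were highest in KO 1, while Csf1r, Adgre1 and Itgam were highest in CTRL 1. Csf1r was 34.9 and 20.9 FPKM in CTRL and 34.7 and 16.7 in KO. Summed B cell markers were 22.0 and 18.5 FPKM in CTRL and 32.4 and 18.7 in KO, and erythroid markers, with 4 of 5 listed, were 12.4 and 2.2 in CTRL and 20.0 and 5.0 in KO. The myeloid, B cell and erythroid sums were also higher in CTRL 1 than in CTRL 2. Klf4, Klf9, Klf10 and Klf11 were lower in CTRL 1 than in CTRL 2. The CD8 T cell markers summed to 8.5 to 11.4 FPKM. Endothelial markers summed to 49.0 to 57.8 FPKM, nearly all of it Pecam1, which T cells also express. Atf3, a stress-induced factor, was 12.7 and 10.3 FPKM in CTRL and 30.1 and 11.9 in KO, so it too was high in KO 1 alone. Atf3 is 1 of the 18 immediate-early and dissociation genes described below, which did not all share this pattern. Fos, for example, was below both CTRL libraries in KO 1 and in KO 2. The part of other cells or of cell handling in the KLF values was not tested, and in bulk RNA more cells of a type and more RNA per cell cannot be told apart.

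**Figure D3:**
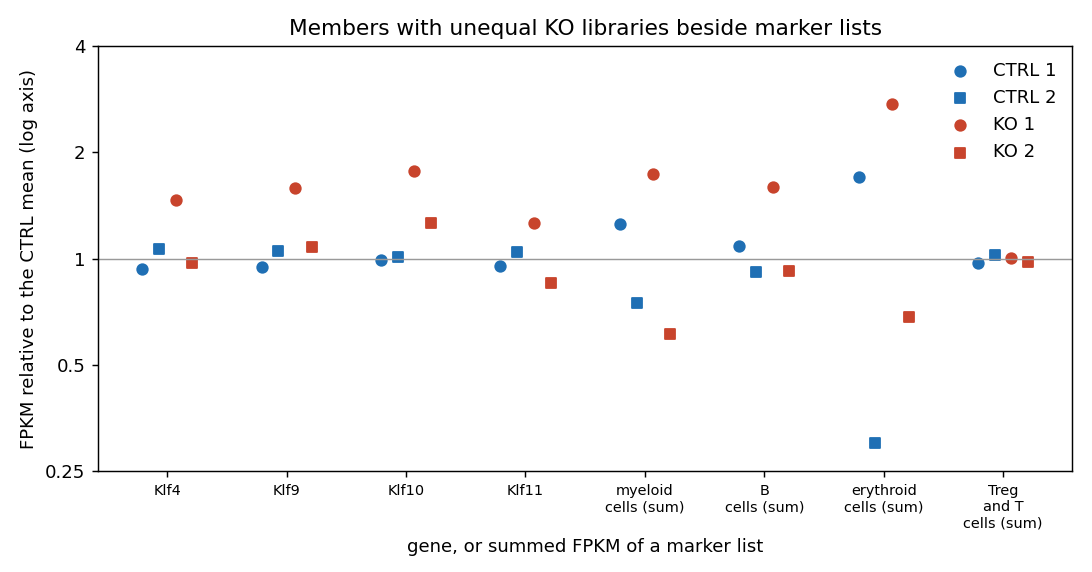
FPKM relative to the CTRL mean, on a log axis, of Klf4, Klf9, Klf10 and Klf11, which were picked for this plot after their values were seen, and of the summed markers of 4 cell types. KO 1 is the highest library for each of these genes and for the myeloid, B cell and erythroid sums. Not every single myeloid marker is highest in KO 1. The Treg and T cell sum is level at 1584 to 1668 FPKM, while single markers within it differ in direction.

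Profiles were log2(FPKM + 1) over the 4 libraries, with each gene's own mean subtracted. By the Euclidean distance between them, 3 genes were named as nearest to Klf2 among 8645 candidates. They were Pi4kb (distance 0.014), Ankib1 (0.015) and Pi4ka (0.015), and Pi4kb and Pi4ka both encode phosphatidylinositol 4-kinases. Pi4kb was 18.6 and 20.3 FPKM in CTRL and 17.7 and 17.2 in KO. The nearest to Klf6 were Arhgap5 (0.033), Bmyc (0.059) and Trbv30 (0.060), of which Arhgap5 was 6.01 and 6.53 FPKM in CTRL and 5.02 and 4.14 in KO. With 4 libraries such distances describe a shape and carry no test.

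The rest of the KLF and SP family was less expressed, and 7 of its 16 genes passed the filter on low values. Of these, 0 rose and 2 fell (limma, adjusted p under 0.05), with a median difference of -0.10. Without adjustment the counts were the same, 0 higher and 2 lower, as they were by limma-voom. The shares over all genes tested were 5.10% higher and 4.65% lower by limma. They were 16.3% and 18.4% without adjustment, and 7.61% and 8.98% by limma-voom. Sp4, an SP factor that binds GC boxes, was 16.8 and 17.5 FPKM in CTRL and 13.2 and 12.8 in KO (-0.37, SE 0.065, adjusted p = 0.0400). Sp6 was 8.72 and 11.1 FPKM in CTRL and 5.77 and 4.85 in KO (-0.78, SE 0.14, adjusted p = 0.0406). Both were lower in each KO library than in either CTRL library. Of those not called, Klf8 (0.30, SE 0.13) and Klf16 (0.19, SE 0.079) had the largest differences.

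Of 13 cofactors tested of 14, 0 were called by limma, 3 had an unadjusted p under 0.05 (1 higher and 2 lower), and limma-voom called 2, both lower. Among all genes tested, limma called 5.10% higher and 4.65% lower, and limma-voom 7.61% and 8.98%. At an unadjusted p under 0.05 in limma these shares were 16.3% and 18.4%. The largest differences were those of the acetyltransferases Kat2a (-0.27, SE 0.067) and Kat2b (-0.24, SE 0.057), and the median was -0.03. Of 11 upstream regulators of KLF2 and KLF4 tested of 12, 0 were called by limma. An unadjusted p under 0.05 was found for 4 of them, all lower (beside 18.4% of all genes), and limma-voom called 4, all lower (beside 8.98% of all genes). Map3k2, a kinase above ERK5, was 7.79 and 8.26 FPKM in CTRL and 6.16 and 5.81 in KO (-0.37, SE 0.080, adjusted p = 0.0518 by limma). Wwp1, a ubiquitin ligase that acts on KLF2 protein, was 11.1 and 9.85 FPKM in CTRL and 7.75 and 8.52 in KO (-0.33, SE 0.093, adjusted p = 0.0792 by limma). Over the 11 regulators the median difference was 0.0010.

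Genes tied to KLF2 in T cells moved in both directions. All 14 passed the filter, and by limma 4 fell, 1 rose and 9 were not called, with a median difference of -0.03. By limma-voom, and equally without adjustment in limma, 4 were lower and 3 higher. Among all genes tested, limma called 4.65% lower and 5.10% higher, and limma-voom 8.98% and 7.61%. Without adjustment in limma these shares were 18.4% and 16.3%. Il7r, the IL-7 receptor alpha chain, was 67.1 and 61.6 FPKM in CTRL and 50.7 and 50.0 in KO (-0.35, SE 0.064, adjusted p = 0.0421). Each KO library was below each CTRL library.

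Myc, the growth factor-induced regulator of cell growth that KLF2 is known to restrain, was 65.4 and 64.9 FPKM in CTRL and 41.3 and 47.6 in KO (-0.54, SE 0.082, adjusted p = 0.0355). Pik3ip1, a membrane inhibitor of PI3 kinase found in resting T cells, was 26.6 and 25.7 FPKM in CTRL and 17.2 and 16.3 in KO (-0.61, SE 0.064, adjusted p = 0.0306). Cxcr3, a chemokine receptor of effector cells that is known to rise when KLF2 is lost, was 69.1 and 62.3 FPKM in CTRL and 89.1 and 95.6 in KO (0.49, SE 0.075, adjusted p = 0.0371). All 3 genes were separate between genotypes, with Cxcr3 the one that was higher in KO.

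S1pr1, the egress receptor that is the best known KLF2 target, was 145.8 and 165.6 FPKM in CTRL and 132.1 and 154.1 in KO, and its libraries overlapped (-0.12, SE 0.10, adjusted p = 0.443). This gene was added to the named genes after its value was seen. Of those not called, Cdkn1a, a cell cycle inhibitor, was at 5.66 and 5.26 FPKM in CTRL and 17.5 and 10.1 in KO (1.15, SE 0.24, adjusted p = 0.0509 by limma), and limma-voom called it. When any 1 library was left out, limma called 0 of the 14 genes and 0 to 1 gene in each direction among all genes. Without KO 1 the differences were -0.36 for Il7r, -0.44 for Myc, -0.65 for Pik3ip1 and 0.54 for Cxcr3. The libraries of these genes were separate between genotypes, so leaving out 1 library could change the size of the difference but not its direction.

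**Figure D4:**
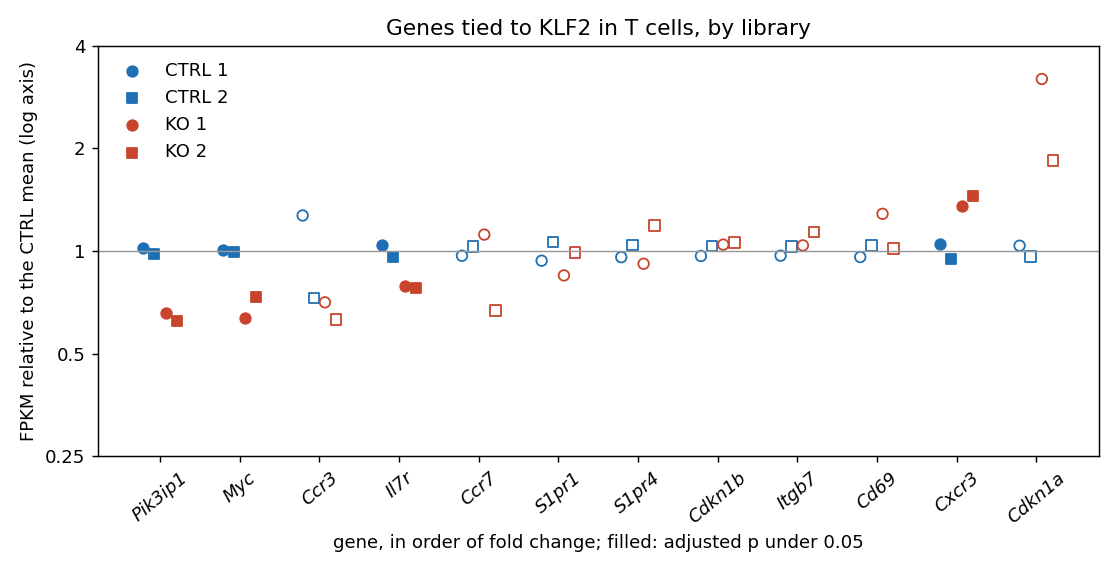
FPKM relative to the CTRL mean, on a log axis, of 12 of the 14 genes tied to KLF2 in T cells, with filled symbols for genes at an adjusted p under 0.05. Pik3ip1, Myc and Il7r lie below 1 in both KO libraries and Cxcr3 above 1, while S1pr1 overlaps between genotypes.

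Several KLF genes are known to respond quickly to cell handling, so immediate-early and dissociation genes were set beside them. All 18 passed the filter, and by limma 1 fell and 0 rose, with a median difference of 0.12. Fos was 276.8 and 286.6 FPKM in CTRL and 209.2 and 206.0 in KO (-0.44, SE 0.053, adjusted p = 0.0346). Of those not called, Hspa1b (-0.78, SE 0.22) and Atf3 (0.69, SE 0.42) had the largest differences. Hspa1b was -0.47 without CTRL 1, and Atf3 was 0.049 without KO 1 and 1.32 without KO 2. Without adjustment, p was under 0.05 for 3 genes on the higher side and 2 on the lower, and limma-voom called 1 lower and 0 higher. For all genes tested the unadjusted shares were 16.3% higher and 18.4% lower. Those called were 5.10% and 4.65% by limma, and 7.61% and 8.98% by limma-voom.

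KLF2 is high in resting and low in effector Treg cells, so genes of both states were read in the same fit. Of 7 resting Treg genes, 1 fell and 0 rose, with a median difference of -0.08. Without adjustment 0 were higher and 3 lower. The gene that fell was Bcl2, which protects cells from death, at 36.2 and 35.3 FPKM in CTRL and 19.4 and 21.9 in KO (-0.77, SE 0.076, adjusted p = 0.0306 by limma). Bach2 (-0.28, SE 0.073) and Satb1 (-0.24, SE 0.059) were not called by limma, and limma-voom called 3 of the 7, all lower. Of 10 effector Treg genes, 3 rose and 0 fell, with a median difference of 0.40, and without adjustment 5 were higher and 2 lower. Beside both lists, limma called 5.10% of all genes tested higher and 4.65% lower. These shares were 16.3% and 18.4% without adjustment, and 7.61% and 8.98% by limma-voom.

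Irf4, a factor of effector differentiation, was 18.0 and 16.7 FPKM in CTRL and 35.7 and 28.0 in KO (0.83, SE 0.12, adjusted p = 0.0355 by limma). Icos, a costimulatory receptor, was 91.0 and 80.3 FPKM in CTRL and 129.6 and 135.9 in KO (0.63, SE 0.078, adjusted p = 0.0346 by limma). Batf, an AP-1 factor that acts with Irf4, was 79.7 and 72.9 FPKM in CTRL and 107.6 and 108.2 in KO (0.50, SE 0.063, adjusted p = 0.0346 by limma). Both KO libraries were above both CTRL libraries for each of the 3. Tigit (0.61, SE 0.13) and Prdm1 (0.60, SE 0.17) were not called by limma, and limma-voom called 5 of the 10, all higher. Prdm1 was 0.36 without CTRL 2. Other effector Treg genes went the other way. Cd44 (-0.18, SE 0.067), Itgae (-0.22, SE 0.062) and Ikzf4 (-0.20, SE 0.086) were lower in each KO library than in either CTRL library. Cd44 and Itgae are those counted as lower without adjustment. Cd44, Itgae and Ikzf4 were added to the named genes after their values were seen. These lists were chosen with earlier results of the same libraries known and are no independent evidence of a direction. As for the genes tied to KLF2, limma called 0 genes of these lists, and of the KLF, SP and immediate-early lists, when any 1 library was left out.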

How the data were processed

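RNA-seq was done on poly(A)-selected RNA of sorted splenic Treg cells, with 2 CTRL and 2 KO libraries read as 150 bp pairs. The deposited FPKM values were made by the authors. Per the study's methods and the submitters' processing notes, they mapped reads to mm10 with HISAT2 2.2.1, counted them with featureCounts 2.0.1 and tested them with edgeR 3.34.0. Gene length, annotation version, strand use and multi-mapped reads are not given in the sources used here.

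KO was compared with CTRL by limma 3.58.1 (R 4.3.3; lmFit, eBayes with intensity trend) on log2(FPKM + 1), which understates changes of low genes, over the 11399 genes that reached an FPKM of 1 in 2 or more libraries. The test was two-sided, with Benjamini-Hochberg adjustment over all genes tested and a threshold of 0.05. This departs from the study's count test because the values are FPKM and not counts. Low FPKM values stood in whole-number ratios, which gave the least reads behind each value (19887 of 19888 genes above 0, tolerance 0.002). These reads entered limma-voom as an alternative. Nothing says that libraries shared more than the pooling of littermates, and p-values measure only the spread between these samples. The median SE was 0.087.

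The members and lists were chosen with earlier results of these data known. Named genes were all members, Setd2, each list gene past the threshold, the 2 largest differences in each list among tested genes that did not pass, and the 3 genes nearest in profile to Klf2 and Klf6. Protein sequences were not used here. Some genes that this rule names are not reported here, and they stay in the counts and medians. Other settings covered the pseudocount, the filter, 3 scalings, the variance model, the replicate block and leaving out each library. The fit was tested on simulated data. Tables were handled in Python 3.11.15 (pandas 2.3.3, numpy 2.4.6) and plotted with matplotlib 3.10.9.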

Additional observations from a re-analysis of the deposited data

How the results depend on the processing

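Precision was limited by 2 libraries per genotype. Over 13 settings beside the one reported, Klf2 (-0.28 to -0.09), Klf3 (-0.50 to -0.06), Klf6 (-0.54 to -0.29), Klf9 (0.10 to 0.57), Klf10 (0.31 to 0.78) and Klf13 (0.05 to 0.30) kept their direction, as did Klf12 (0.27 to 0.65) in the 12 settings that tested it. For Klf2, Klf6, Klf9, Klf10, Klf12 and Klf13, whose libraries were separate between genotypes, leaving out 1 library could not turn the direction. The filters, the variance trend and the replicate block left the difference itself unchanged, so they could not turn it either. Leaving out each library in turn gave -0.036 to 0.54 for Klf4, which turned without KO 1. It gave -0.19 to 0.12 for Klf7, which turned without CTRL 2 and without KO 1 (0.087), and Klf7 was 0.031 with quantile normalization. It gave -0.21 to 0.31 for Klf11, which turned without CTRL 1 (-0.0072) and without KO 1. The cause of these turns was not tested beyond the libraries left out.

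With no filter, when 19888 genes were tested, limma called 0 genes higher and 0 lower (4463 at an unadjusted p under 0.05), and so 0 in each list. Without the variance trend 315 genes were called higher and 364 lower, with 2 of the genes tied to KLF2 and 0 of the rest of the KLF and SP family. Limma-voom called 867 genes higher and 1024 lower, with 1 member lower, 2 cofactors, 4 upstream regulators, 7 genes tied to KLF2 (4 lower and 3 higher), 3 resting and 5 effector Treg genes. Quantile normalization called 1 member lower, beside 479 of all 11399 genes tested. A mean FPKM above 5 called 2 upstream regulators, beside 654 genes higher and 622 lower of 8646 tested. Scaling to the same sum called 1 upstream regulator, beside 570 genes higher and 647 lower of 11398 tested. When 1 library was left out, 0 to 1 genes were called higher and 0 to 1 lower, and 0 in each list (2681 to 3044 genes at an unadjusted p under 0.05), in fits where a lone sample was taken to vary like the other group. The cause of the other shifts was not tested. Higher calls were 52.3% of all calls as reported, 58.3% with median-ratio scaling and 46.8% with scaling to the same sum.

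The replicate numbers are shared by CTRL and KO, but nothing says that they mark a pair. Across genes, which are not independent replicates, deviations of same-numbered libraries correlated with a Pearson r of 0.342 and a Spearman rho of 0.055. With the replicate block 968 genes were called higher and 805 lower, with 1 member higher (Klf10) and 1 lower (Klf6), 2 immediate-early genes and 5 effector Treg genes.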
